A study of Mus musculus with 12 samples.

Results

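The respiratory chain was followed through 102 protein-coding genes of mouse bone-marrow-derived macrophages, out of 15555 genes in the count table. They were taken by symbol: every gene whose name starts with Nduf, Uqcr, Cox4 to Cox8, Atp5 or mt-, together with Sdha, Sdhb, Sdhc and Sdhd. Of these, 13 lie on the mitochondrial genome and 89 in the nucleus, and 101 had enough counts to be tested, all but Cox6b2. RNA was sequenced from 12 libraries, 3 of each genotype, which are the wild type (WT), a knockout of Cbl (Cbl-/-), a knockout of Cbl-b (Cbl-b-/-) and, as DKO, both knockouts together. All of the marrow was grown to day 9 in medium with serum and with L-cell supernatant as the source of CSF-1, the growth factor of macrophages, and no further agent is named in the labels, nor is the strain, the sex or the age of the mice or the way in which the alleles were made. The labels do not say that the 3 libraries of a genotype came from separate mice, and they speak of pooling RNA without saying what was pooled, so the p-values speak of the spread among libraries alone, and part of it may be technical. Total counts ran from 21048103 to 43946503 per library.

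Cbl and Cbl-b are E3 ubiquitin ligases that attach ubiquitin to activated receptors such as the CSF-1 receptor. Cbl fell by 1.44 on the log2 scale in the Cbl-/- libraries and by 1.90 in the libraries labelled DKO. Cblb did not bear out 2 of the labels: its log2 difference from WT was -0.17 in the libraries labelled Cbl-b-/- (edgeR quasi-likelihood test, adjusted p = 0.457) and 0.27 in those labelled DKO (edgeR adjusted p = 0.0027), where a count over a whole gene does not show which exons were read. Those groups are therefore named by their labels below, and every direction given for them rests on the labels. The macrophage markers Adgre1 (F4/80) and Csf1r were read in each library, at 663.5 or more and at 1611 or more CPM (counts scaled to a common library size with edgeR's TMM factors). The erythroid markers were not in the table, and the summed T and B cell markers were at 1.01 CPM or less in each library.

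The respiratory chain sits in the inner mitochondrial membrane, where complexes I and II pass electrons from NADH and succinate to complex III, cytochrome c and complex IV, and complex V makes ATP from the proton gradient. Its subunits come from different genomes. Mitochondrial DNA encodes core subunits of complexes I, III, IV and V and is transcribed as long polycistronic RNAs that are then cut into mRNAs. The nucleus encodes the remaining subunits and the whole of complex II. In macrophages the balance between respiration and glycolysis is known to shift with activation, and succinate, the substrate of complex II, is known as an inflammatory signal.

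In WT libraries the genes of the mitochondrial genome stood far above the nuclear ones when levels were taken per length, as CPM per kb of exon. The length is that of all annotated exons of a gene merged, such as 702 bases for Cox6a1 and 4237 for Atp5b. It can exceed the length of the mRNA in use, so the order and medians of nuclear genes, and their distance from the mt- genes, depend in part on the annotation. The libraries were prepared with a poly(A) kit. Levels, mt-Nd6 and the other mt- genes included, therefore also depend on how well each poly(A) tail was captured, which was not measured. mt-Co1, the catalytic subunit of complex IV, was highest at 7079 ± 507.1 CPM per kb (SD, n = 3), followed by mt-Atp6 of complex V at 5400 ± 465.0 and mt-Co2 at 4211 ± 188.5. mt-Nd3, a core subunit of complex I, was the lowest of the 13 at 644.4 ± 45.9 CPM per kb. The middle of the order, from mt-Nd5 at 1401 ± 115.1 through mt-Nd4l and mt-Nd6 to mt-Nd2 at 1269 ± 87.3 CPM per kb, did not separate beyond the spread between libraries. The highest nuclear gene, Cox6a1 of complex IV, reached 215.3 ± 6.21 CPM per kb, below every gene of the mitochondrial genome. Next came Atp5a1, the alpha subunit of complex V, at 181.8 ± 2.76, Cox8a at 180.0 ± 5.82, Cox4i1 at 173.6 ± 6.14, Cox6b1 at 167.2 ± 10.9 and Atp5b at 165.9 ± 1.94 CPM per kb, where Atp5a1 and Cox8a did not separate beyond their spread. The median over nuclear genes was 37.7 CPM per kb, and by complex it was 26.5 for complex I, 48.0 for complex II, 52.5 for complex III, 57.2 for complex IV and 47.8 for complex V. The 8 assembly factors of complex I, which help to build it and are not part of it, were lower, with a median of 4.74 and none above the 9.46 CPM per kb of Ndufaf8.

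Complex IV has subunits with alternative tissue isoforms, and in these cells 1 isoform of each pair carried nearly all of the reads. In WT, Cox4i1 was at 399.3 times the level per length of Cox4i2, the isoform known from lung and hypoxic cells, and Cox6a1 at 680.3 times that of Cox6a2, the isoform of heart and skeletal muscle. Cox7a2 was at 10.6 times the level per length of the muscle isoform Cox7a1, which was read at 5.83 ± 1.20 CPM per kb. The low isoforms had few counts, so their ratios are imprecise, and none of Cox4i2, Cox6a2 and Cox7a1 passed the test in any genotype against WT.

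**Figure D1:**
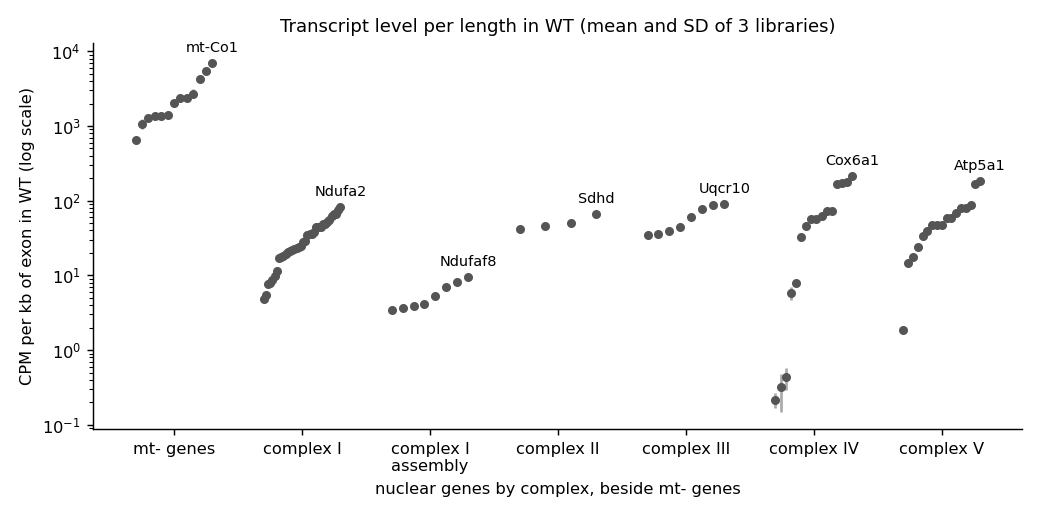
Level per length in WT, as CPM per kb of exon on a log axis, for each gene of the mitochondrial genome and for the nuclear genes by complex (points, mean of 3 libraries; bars, SD). The 13 mt- genes lie between 644.4 and 7079 CPM per kb, above the highest nuclear gene, Cox6a1, at 215.3.

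The largest differences from WT were in the libraries labelled DKO, where nuclear genes were called higher and genes of the mitochondrial genome lower. Of the 88 nuclear genes tested, 49 rose and none fell, and of the 13 mt- genes 6 fell and none rose, at an adjusted p under 0.05. At an unadjusted p under 0.05 these counts were 55 and 8, again with 0 in the other directions. Over all 12671 genes tested, 35.4% were called in this comparison, 19.1% as higher and 16.3% as lower. The median log2 difference was 0.21 over the nuclear genes and -0.29 over the mt- genes, beside -0.0029 over all genes tested. The mt- median rested on single libraries, and was -0.56 without DKO replicate 3 and -0.17 without DKO replicate 2. In 51 of the 88 nuclear genes each library labelled DKO lay above each WT library, a pattern shown by 23.7% of all genes tested, and in 5 of 13 mt- genes each lay below, beside 22.8%. With total counts in place of TMM scaling, 33 nuclear genes rose and 9 mt- genes fell, and the share of higher among all genes called moved from 54.0% to 38.2%. Leaving out WT replicate 1 lowered the count of nuclear genes that rose to 30, and leaving out DKO replicate 3 raised the count of mt- genes that fell to 12. The RNA came from whole cultures, so fewer cells of a type and less RNA per cell cannot be told apart.

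Summed over all nuclear members, the level was 6903, 7042 and 7233 CPM in WT and 8183, 8513 and 8495 CPM in the libraries labelled DKO. The groups did not overlap, and the Cbl-/- sums of 6887 to 6975 CPM and the Cbl-b-/- sums of 6969 to 7497 CPM stayed below the DKO ones as well. The summed mt- genes were at 35590, 32050 and 30850 CPM in WT and at 24060, 22770 and 34200 CPM in the libraries labelled DKO. Here DKO replicates 1 and 2 lay below each of the other 10 libraries, while replicate 3 lay within the WT range. The ratio of mt- to nuclear counts, in which library scaling cancels, was 5.16, 4.55 and 4.27 in WT and 2.94, 2.67 and 4.03 in the libraries labelled DKO, a log2 difference of -0.55. Every DKO value was below every WT value, and DKO replicate 3, at 4.03, was close to the lowest Cbl-/- library at 4.05. Without DKO replicate 3 the log2 difference of the ratio was -0.73. The mt- genes took 3.10 to 3.56% of all counts in WT, and 2.35, 2.18 and 3.21% in the 3 libraries labelled DKO.

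**Figure D2:**
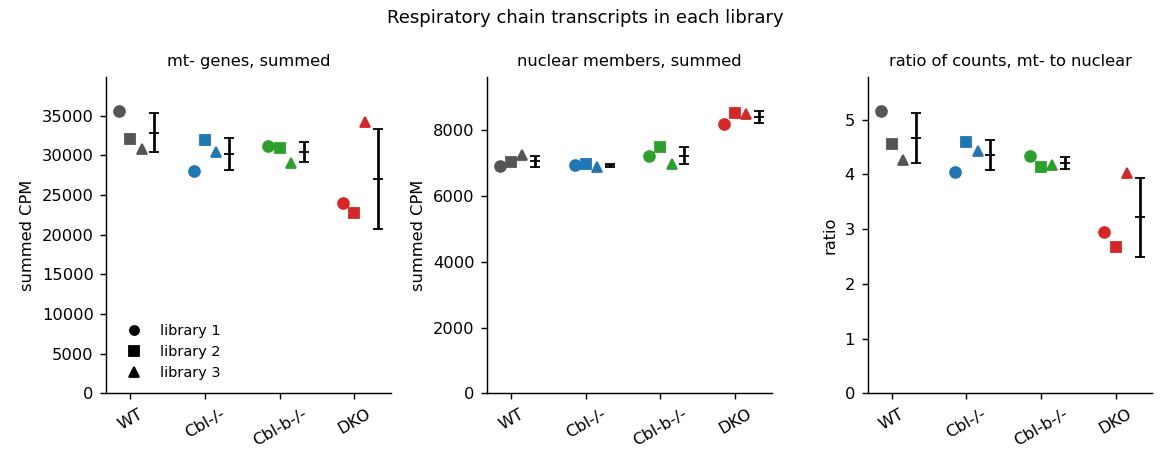
Summed CPM of the 13 mt- genes (left), summed CPM of the nuclear members (middle) and the ratio of mt- to nuclear counts (right) in each library; symbols mark libraries 1 to 3 of a genotype, the black bar gives mean and SD. The nuclear sums labelled DKO lie between 8183 and 8513 CPM, above all others, and DKO replicate 3 parts from replicates 1 and 2 in the mt- sum (34200 against 24060 and 22770 CPM).

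Complex II, succinate dehydrogenase, is encoded in the nucleus alone, and all 4 of its genes rose in the libraries labelled DKO. Sdha (chr13:74322254-74350280, minus strand, GRCm38), the flavoprotein that oxidises succinate, was at 210.9, 203.1 and 200.0 CPM in WT and at 244.7, 248.4 and 259.6 CPM under the DKO label. The groups did not overlap, and the log2 difference was 0.29 (SE 0.05, edgeR adjusted p = 0.000355). Sdhb (chr4:140961203-140979193, plus strand), the iron-sulfur subunit, was at 102.0, 102.6 and 107.3 CPM in WT and at 120.4, 126.6 and 130.4 CPM under the DKO label, again without overlap (log2 difference 0.28, SE 0.05, edgeR adjusted p = 0.000697). Sdhc (chr1:171127165-171150603, minus strand), a membrane anchor, changed most of the 4, from 137.5, 134.9 and 141.5 CPM in WT to 176.0, 188.1 and 168.8 CPM under the DKO label. Its groups were far apart relative to their spread (log2 difference 0.36, SE 0.06, edgeR adjusted p = 8.19e-05). Sdhd (chr9:50596357-50603812, minus strand), the other anchor, went from 81.3, 83.8 and 83.6 CPM to 92.8, 89.9 and 100.6 CPM (log2 difference 0.19, SE 0.06, edgeR adjusted p = 0.0193). That call of Sdhd was lost with total counts (edgeR adjusted p = 0.132), without WT replicate 1 (0.0803) and with only WT and DKO in the fit (0.0609), whereas Sdha, Sdhb and Sdhc kept theirs under all 21 alternative settings.

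The promoters of Sdha, Sdhd and Cox6a1 are shown because these genes rose and because their windows hold the letters bound by NRF1, a nuclear factor known to drive respiratory genes. Each window runs from 250 bases before to 50 bases after the start of the RefSeq transcript (GRCm38.p6, minus strand, at chr13:74350191-74350490, chr9:50603800-50604099 and chr5:115348909-115349208), printed 5′ to 3′ on the strand of the gene. Capitals mark matches to the NRF1 motif (GCGCA, any 1 base, then GCGC) and to the core of ETS factors such as GABPA (CCGGAAG, or CTTCCGG on the other strand).
Sdha: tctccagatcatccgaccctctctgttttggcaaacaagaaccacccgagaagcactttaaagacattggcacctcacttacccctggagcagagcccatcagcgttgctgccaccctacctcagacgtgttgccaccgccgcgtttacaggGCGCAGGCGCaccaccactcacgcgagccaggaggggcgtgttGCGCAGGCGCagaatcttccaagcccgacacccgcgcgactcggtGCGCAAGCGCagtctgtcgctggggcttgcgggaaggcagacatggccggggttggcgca
Sdhd: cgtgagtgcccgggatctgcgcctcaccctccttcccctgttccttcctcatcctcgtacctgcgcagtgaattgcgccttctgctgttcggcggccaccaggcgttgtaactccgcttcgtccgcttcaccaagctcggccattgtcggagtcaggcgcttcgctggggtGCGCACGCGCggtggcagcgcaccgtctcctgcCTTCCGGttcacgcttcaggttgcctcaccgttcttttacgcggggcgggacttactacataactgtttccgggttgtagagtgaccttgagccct
Cox6a1: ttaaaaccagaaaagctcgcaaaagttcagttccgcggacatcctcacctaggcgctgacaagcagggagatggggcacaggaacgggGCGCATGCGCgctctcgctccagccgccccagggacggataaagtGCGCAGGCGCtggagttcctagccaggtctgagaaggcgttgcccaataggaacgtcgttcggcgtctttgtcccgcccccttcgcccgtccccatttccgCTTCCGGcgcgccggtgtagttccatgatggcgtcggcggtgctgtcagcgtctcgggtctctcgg
Sdha held 3 NRF1 matches, and Cox6a1 and Sdhd held both kinds of motif. The search covered both strands, and the motif of YY1 (AAGATG followed by GCG) was searched in the same way. A RefSeq window was found for 72 of the 89 nuclear members. The NRF1 motif was in 26.0% of their 77 windows and in 6.38% of 21262 windows of all protein-coding genes. The ETS motif was in 23.4% and 11.6% of these windows, and the YY1 motif in 10.4% and 1.83%. At least 1 of the 3 motifs was in 57.5% of the 40 windows of members that rose under the DKO label and in 44.4% of the 36 windows of members that were tested and did not pass. The single motifs did not all lean that way: NRF1 was in 32.5% and 19.4% of these windows, YY1 in 12.5% and 8.33%, and the ETS motif in 8 of the 40 and 10 of the 36. These matches describe letters in a window, not binding, and the difference between those shares was not tested.

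Complex I, which takes electrons from NADH, has 36 nuclear members here, of which 19 rose under the DKO label and none fell. Ndufb6, an accessory subunit of its membrane arm, was at 28.9, 29.8 and 30.5 CPM in WT and at 34.8, 41.8 and 41.4 CPM under the DKO label. The groups did not overlap (log2 difference 0.40, SE 0.08, edgeR adjusted p = 0.000603). Ndufs4, an accessory subunit whose loss causes complex I deficiency, rose by 0.39 (SE 0.10, edgeR adjusted p = 0.0069), with 22.1, 24.4 and 23.9 CPM in WT and 27.8, 27.6 and 36.9 CPM under the DKO label. Without DKO replicate 3, the highest, its difference was 0.24 (edgeR adjusted p = 0.0199). Ndufa2, the complex I member of highest level per length, rose by 0.27 (edgeR adjusted p = 0.00363). The rise of Ndufb4 by 0.46 (edgeR adjusted p = 0.0458) was lost in 10 of 21 alternative settings, and that of Ndufa5 by 0.36 (0.02) was lost without DKO replicate 3 (0.0797) and without WT replicate 1 (0.0878). The 17 members that did not pass had log2 differences from -0.03 for Ndufb7 to 0.18 for Ndufs6, and Ndufv1, the subunit that binds NADH, was at 0.10 (edgeR adjusted p = 0.284).

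Among the 8 assembly factors of complex I, 3 rose and none fell. Ndufaf6 had the largest increase of all nuclear members that passed, from 4.55, 4.13 and 5.11 CPM in WT to 6.80, 7.38 and 6.98 CPM under the DKO label (log2 difference 0.62, SE 0.16, edgeR adjusted p = 0.00749). The groups did not overlap, at a level that is low among the members. Ndufaf8 did not pass (0.17, edgeR adjusted p = 0.309).

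Complex III, which hands electrons from ubiquinol to cytochrome c, rose in 4 of the 8 nuclear genes taken by symbol. Its subunit Cyc1 lies outside the symbol rule. The genes of this complex are named here after their values were seen. Uqcrc2, a core subunit, was at 97.3, 99.2 and 100.1 CPM in WT and at 117.8, 124.7 and 137.5 CPM under the DKO label (log2 difference 0.36, SE 0.06, edgeR adjusted p = 0.000219). Of its exons 504 bases lie opposite those of Pdzd9, and the labels do not say whether counting used the strand. Such an overlap with another gene of the table was found for 23 nuclear members, 16 of them among the 49 that rose. Among the named ones it was 257 bases for Ndufb6 (Smim27), 154 for Cox4i1 (Emc8), 129 for Atp5a1 (Haus1), 66 for Ndufa2 (Tmco6), 50 for Uqcrb (Gm10767) and 30 for Ndufs6 (Mrpl36). Uqcrc1, the other core subunit, rose by 0.29, Uqcrfs1, the Rieske iron-sulfur protein, by 0.28 and Uqcrb by 0.35. The value of Uqcrb was 0.20 without DKO replicate 3 (edgeR adjusted p = 0.0468), and its call was lost without WT replicate 2 (0.0577) and with only WT and DKO in the fit (0.0551). The small subunits Uqcrq, Uqcr11 and Uqcrh had log2 differences of 0.01, 0.02 and 0.04, and Uqcr10 one of 0.16, with none past the threshold.

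Complex IV, cytochrome c oxidase, rose in 7 of 15 nuclear genes tested. Cox6a1 was at 146.1, 153.4 and 153.9 CPM in WT and at 168.0, 189.1 and 180.6 CPM under the DKO label, without overlap (log2 difference 0.25, SE 0.08, edgeR adjusted p = 0.0194). That call was lost with total counts (edgeR adjusted p = 0.069), without WT replicate 1 (0.0819) and without DKO replicate 2 (0.0614). Cox4i1 went from 263.0, 264.0 and 280.0 CPM to 291.9, 320.9 and 306.8 CPM (log2 difference 0.19, edgeR adjusted p = 0.0118), a call lost with total counts (0.0895), without WT replicate 1 or 2 (0.0603 and 0.0537) and with only WT and DKO in the fit (0.0564). Cox7b rose by 0.43 (edgeR adjusted p = 0.0252) and Cox7a2 by 0.32 (0.0167), and both calls were lost without DKO replicate 3 (0.185 and 0.0631) and without WT replicate 1 or 2, that of Cox7b also with no filter on low counts (0.0505). Cox8a at 0.19, Cox6b1 at 0.13, Ndufa4 at 0.05 and Cox7a2l at -0.02 did not pass.

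Complex V, ATP synthase, had 12 of 17 nuclear genes higher under the DKO label. Atp5b (chr10:128083273-128090391, plus strand), the catalytic beta subunit, had the smallest adjusted p of the nuclear members. It was at 700.5, 712.3 and 696.5 CPM in WT, at 730.5, 726.1 and 738.3 CPM in Cbl-/-, at 729.8, 708.8 and 701.5 CPM under the Cbl-b-/- label and at 892.8, 952.2 and 933.8 CPM under the DKO label. The DKO values lay above each of the other 9 libraries (log2 difference from WT 0.40, SE 0.05, edgeR adjusted p = 4.97e-06). Atp5a1 rose by 0.32 (SE 0.05, edgeR adjusted p = 5.26e-05), from 560.6, 577.7 and 571.6 CPM to 700.5, 736.0 and 705.4 CPM. Both kept their calls under all 21 alternative settings.

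**Figure D3:**
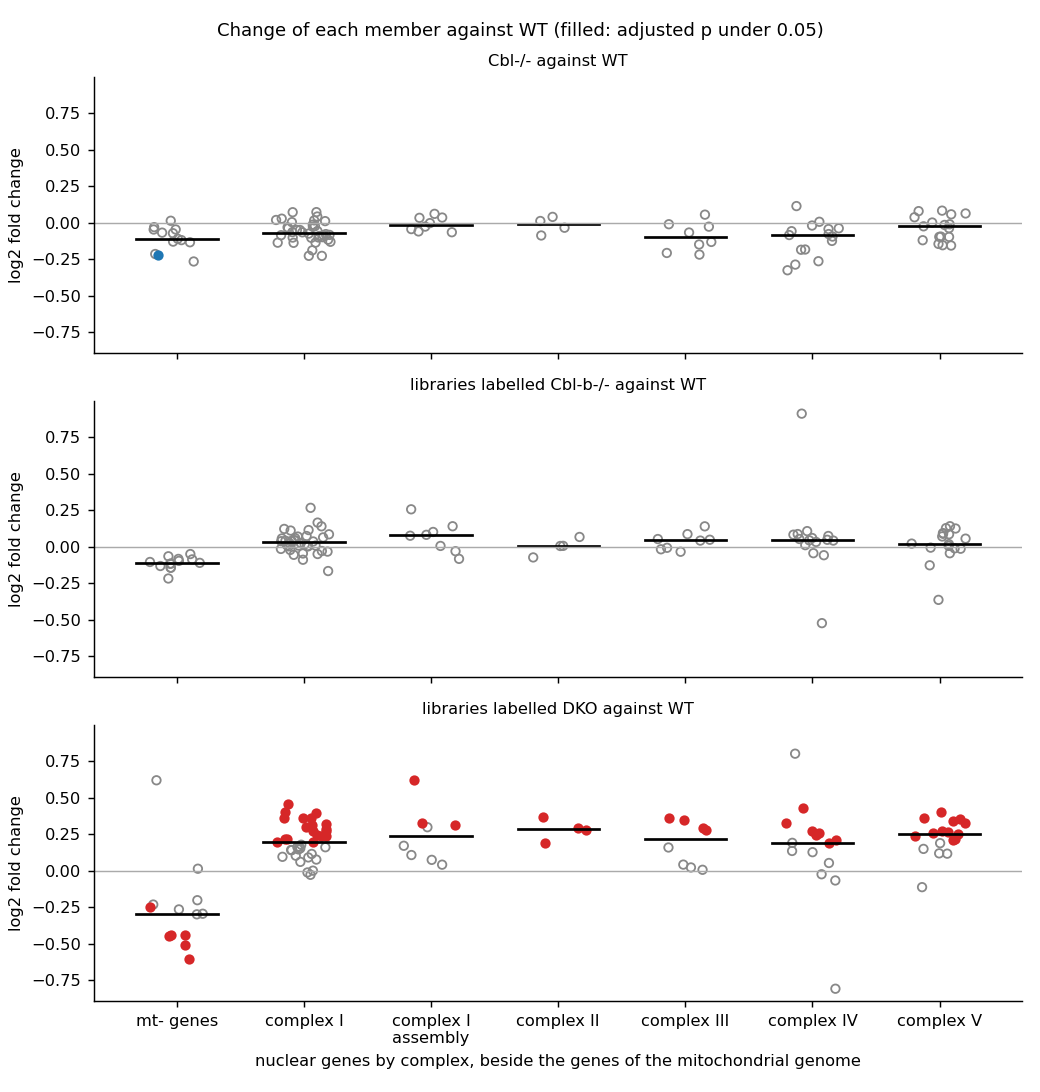
Log2 fold change against WT of each tested member in Cbl-/- (top), under the Cbl-b-/- label (middle) and under the DKO label (bottom), for the mt- genes and for nuclear genes by complex; filled points have an adjusted p under 0.05 and bars are medians. In the bottom panel 49 nuclear genes are filled above 0 and 6 mt- genes below 0.

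**Figure D4:**
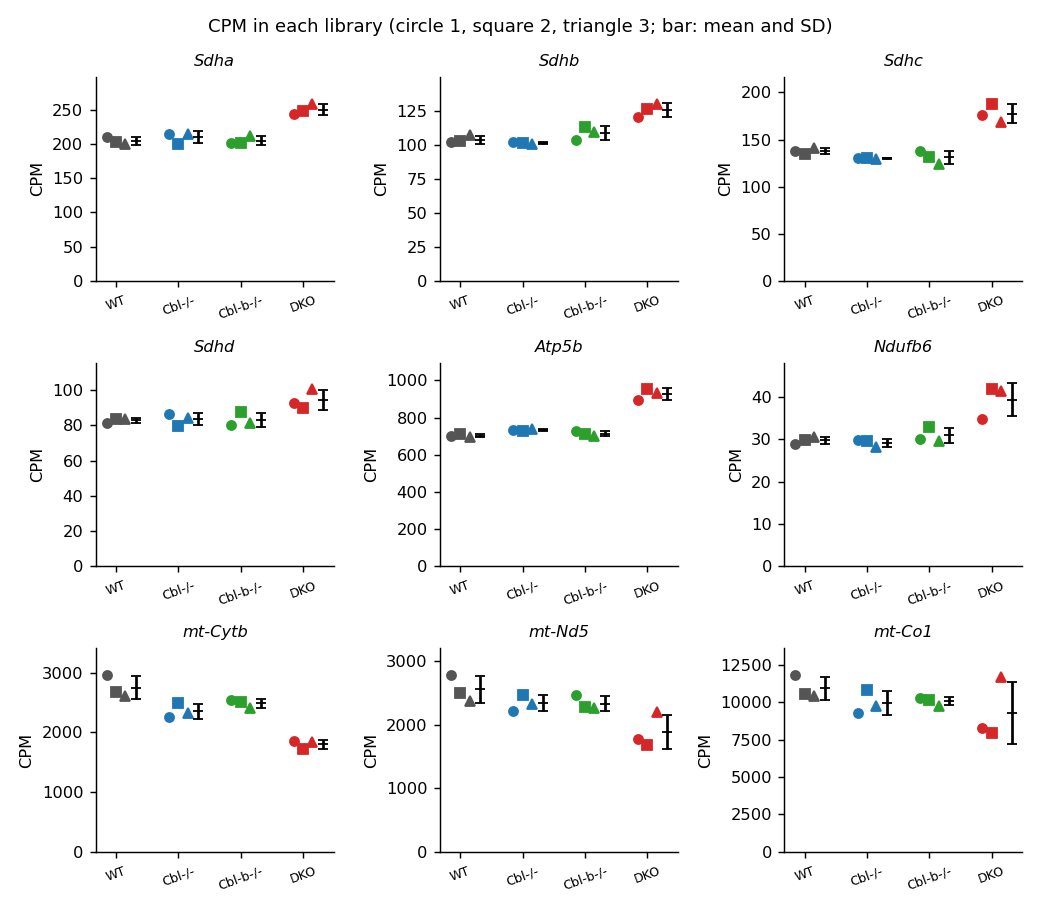
CPM in each library for the 4 genes of complex II, Atp5b, Ndufb6 and 3 mt- genes; circles, squares and triangles are libraries 1, 2 and 3 and the black bar is mean and SD. The nuclear genes lie highest in all 3 libraries labelled DKO, mt-Cytb lies lowest in all 3, and mt-Co1 is low in DKO replicates 1 and 2 only.

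On the mitochondrial genome, mt-Cytb (chrM:14145-15288, plus strand), the cytochrome b of complex III, fell most in the libraries labelled DKO. It was at 2965, 2671 and 2605 CPM in WT and at 1855, 1715 and 1839 CPM under the DKO label. The groups were far apart, with every DKO library below each of the other 9 (log2 difference -0.61, SE 0.06, edgeR adjusted p = 8.93e-07). Of the 7 core subunits of complex I that the mitochondrial genome encodes, 5 fell. mt-Nd4l was at 445.0, 405.1 and 375.4 CPM in WT and at 292.6, 259.7 and 309.3 CPM under the DKO label, with no overlap (log2 difference -0.51, SE 0.08, edgeR adjusted p = 0.000145). mt-Nd5 went from 2786, 2506 and 2375 CPM to 1783, 1683 and 2193 CPM (log2 difference -0.44, SE 0.09, edgeR adjusted p = 0.000789). mt-Nd4 went from 3066, 2750 and 2577 CPM to 1890, 1810 and 2500 CPM (log2 difference -0.44, SE 0.10, edgeR adjusted p = 0.00361). In both genes the groups did not overlap, and DKO replicate 3 was the highest of its group and nearest to WT. mt-Nd6, the only one of the 13 on the opposite strand, fell by 0.45 (edgeR adjusted p = 0.0149) and mt-Nd1 by 0.25 (edgeR adjusted p = 0.0286), but neither call held without WT replicate 1 (0.0633 and 0.11), without DKO replicate 1 (0.055 and 0.105) or without DKO replicate 2 (0.0765 and 0.121), and that of mt-Nd1 was also lost without WT replicate 2 (0.0568) and with only WT and DKO in the fit (0.0958).

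The other 7 genes of the mitochondrial genome did not pass, and in each of them DKO replicate 3 stood above replicates 1 and 2. mt-Co1 was at 11840, 10560 and 10410 CPM in WT and at 8300, 7935 and 11700 CPM under the DKO label (log2 difference -0.23, edgeR adjusted p = 0.136). mt-Co2 was at 3029, 2816 and 2796 CPM in WT and at 2030, 1925 and 3555 CPM under the DKO label, so that replicate 3 was the highest of all 12 libraries while replicates 1 and 2 were the lowest. mt-Co3, also of the core of complex IV, was at 2436, 2076 and 1856 CPM in WT and at 1766, 1570 and 3090 CPM under the DKO label. mt-Atp8, a small membrane subunit of complex V, showed the widest split, with 255.6, 200.0 and 201.2 CPM in WT and 142.5, 118.6 and 745.7 CPM under the DKO label. Its log2 difference was 0.62 with an SE of 0.62 (edgeR adjusted p = 0.491). Without DKO replicate 3 that of mt-Atp8 turned to -0.74 (edgeR adjusted p = 0.0056). In that fit 12 of 13 mt- genes fell, with log2 differences from -0.38 for mt-Nd1 to -0.74 for mt-Atp8, and mt-Co3 at -0.35 did not pass (edgeR adjusted p = 0.112).

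DKO replicate 3 differed from WT unevenly from gene to gene. In the order of the mitochondrial genome, its log2 level against the mean of WT was -0.03 for mt-Nd1, 0.08 for mt-Nd2, 0.10 for mt-Co1, 0.30 for mt-Co2, 1.78 for mt-Atp8, 0.06 for mt-Atp6, 0.55 for mt-Co3 and 0.12 for mt-Nd3. For the genes after these it was -0.40 for mt-Nd4l, -0.16 for mt-Nd4, -0.22 for mt-Nd5, -0.19 for mt-Nd6 and -0.58 for mt-Cytb. DKO replicates 1 and 2 were below WT in all 13 genes, between -0.26 and -0.61 and between -0.42 and -0.87. The uneven profile was also seen in shares within the mt- counts, where library scaling plays no part. mt-Atp8 took 2.18% of the mt- counts in DKO replicate 3 and 0.52 to 0.75% in the other 11 libraries, while mt-Cytb took 5.38% in DKO replicate 3 and 7.54 to 8.44% in the others. Over the 88 tested nuclear members the same library had a median ratio of 1.02 to the mean of DKO replicates 1 and 2, against 1.44 over the mt- genes, each of which was above 1. Over the whole count table, mt- genes included, this library also stood apart from its group. Its chi-square per degree of freedom was 44.7 against DKO replicate 1 and 55.3 against DKO replicate 2. No other pair within a genotype exceeded 12.3. RNA integrity is not given in the labels.

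mt-Atp8 is printed whole, as transcribed 5′ to 3′ (chrM:7766-7969, plus strand, GENCODE M21 on GRCm38), because its reads set DKO replicate 3 apart and because its end is also the start of mt-Atp6, of which the first 60 bases (chrM:7927-7986) are given. The shared 43 bases are in capitals. The last 60 bases of mt-Nd4l (chrM:10114-10173) and the first 60 of mt-Nd4 (chrM:10167-10226), which both fell, share the 7 bases in capitals. Genes that share bases cannot both be cut whole from 1 RNA, so values within such a pair may not be independent.
mt-Atp8: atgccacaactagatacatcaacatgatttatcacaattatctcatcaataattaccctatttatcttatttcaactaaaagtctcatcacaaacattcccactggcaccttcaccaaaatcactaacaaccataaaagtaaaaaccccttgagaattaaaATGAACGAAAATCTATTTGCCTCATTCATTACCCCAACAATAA
mt-Atp6, first 60 bases: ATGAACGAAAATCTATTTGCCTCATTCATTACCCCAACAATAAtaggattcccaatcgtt
mt-Nd4l, last 60 bases: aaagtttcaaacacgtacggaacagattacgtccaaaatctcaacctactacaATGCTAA
mt-Nd4, first 60 bases: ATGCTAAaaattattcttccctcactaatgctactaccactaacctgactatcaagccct
Reads in the shared bases cannot be assigned to 1 gene, so the counts of mt-Atp8, which is 204 bases long, depend on how the authors' counting treated them. Copies of mitochondrial sequence also lie in the nucleus. At 95% identity or more over at least 50% of a transcript, 8 of the 13 mt- genes and 16 of the 89 nuclear members have an annotated near-identical copy. Of these copies the table holds Gm4076, with 0.000995% of the counts of mt-Nd5, and Gm10250, with 0.209% of those of Atp5h, and the sources do not say how reads that fit both were counted.

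**Figure D5:**
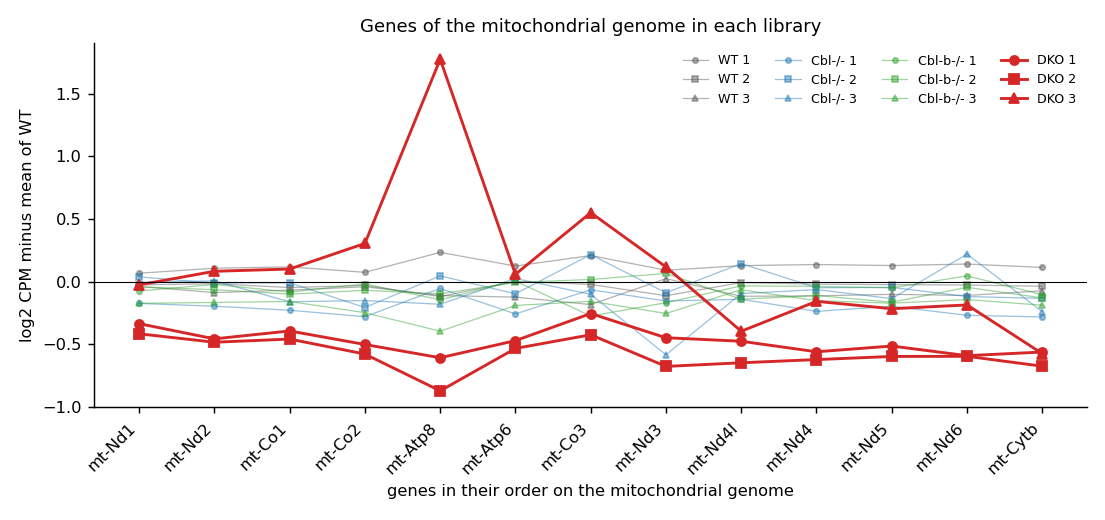
Log2 CPM of each mt- gene minus the mean log2 CPM of WT, in each library, with genes in their order on the mitochondrial genome; colours mark genotypes and symbols libraries 1 to 3. DKO replicates 1 and 2 run below 0 throughout, and DKO replicate 3 reaches 1.78 at mt-Atp8 and -0.58 at mt-Cytb.

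In Cbl-/- libraries 1 of the 101 members passed, as lower, while 9.87% of all genes tested passed, 5.68% as higher and 4.19% as lower. Each Cbl-/- library lay above each WT library in 4 members and below in 16, beside 19.0% and 18.6% of all genes tested. The member that passed was mt-Cytb, at 2253, 2498 and 2320 CPM against 2965, 2671 and 2605 CPM in WT. The groups did not overlap and the log2 difference was -0.22 (SE 0.06, edgeR adjusted p = 0.0267), but the call was lost without WT replicate 1 (0.183), without WT replicate 2 (0.0531), without Cbl-/- replicate 1 (0.144) and without Cbl-/- replicate 3 (0.114). With only the WT and Cbl-/- libraries in the fit 7 members passed, and without DKO replicate 3 in the shared fit 5 did. No nuclear member passed, 7 had an unadjusted p under 0.05, all as lower, and their median log2 difference was -0.06, with medians by complex from -0.10 for complex III to -0.01 for complex II. Under the Cbl-b-/- label none of the 101 members passed in edgeR or in DESeq2, beside 0.489% of all genes tested in edgeR (0.395% as higher and 0.0947% as lower). At an unadjusted p under 0.05 there were 3 in edgeR, 2 nuclear genes as higher and mt-Cytb as lower. There the 3 libraries lay above WT in 8 members and below in 3, beside 7.84% and 7.27% of all genes. The mt- genes had a median of -0.11 and the nuclear ones of 0.04 there. The comparisons of the 3 genotypes share the WT libraries. The differences of Sdhc from WT, side by side, were -0.09 in Cbl-/-, -0.07 under the Cbl-b-/- label and 0.36 under the DKO label, and those of mt-Nd4l were -0.03, -0.08 and -0.51.

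Set directly against Cbl-/-, the libraries labelled DKO had 58 of 88 nuclear members higher and none lower, and 5 of 13 mt- genes lower and none higher. In that comparison 29.6% of all genes tested were called, 16.0% as higher and 13.6% as lower. By complex, 25 of 36 nuclear genes of complex I, 4 of 4 of complex II, 6 of 8 of complex III, 8 of 15 of complex IV and 13 of 17 of complex V were higher. mt-Nd4l (-0.48), mt-Cytb (-0.39), mt-Nd6 (-0.40), mt-Nd4 (-0.32) and mt-Nd5 (-0.31) were lower. The count of mt- genes was 2 without DKO replicate 2, 3 without DKO replicate 1 or Cbl-/- replicate 2 or 3, 3 with only these genotypes in the fit, and 11 without DKO replicate 3.

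Whether the difference labelled DKO exceeds the sum of the single differences was tested by a contrast of the 4 genotypes, the means under the DKO and WT labels less those of both single knockouts. It was past the threshold for 20 of 101 members, 19 nuclear ones above 0 and mt-Nd4l below 0, beside 15.7% of all genes tested (8.39% above and 7.28% below 0). The highest values were 0.57 for Ndufs6 (SE 0.14, edgeR adjusted p = 0.0104) and 0.53 for Sdhc (SE 0.08, edgeR adjusted p = 0.00025), and Cox6a1 (0.38), Ndufb6 (0.38), Atp5b (0.32), Uqcrc2 (0.32), Sdha (0.25), Sdhb (0.24), Uqcrc1 (0.23) and Atp5a1 (0.21) also passed. Ndufs6 itself did not pass against WT under the DKO label, so its value here is not the size of a rise there. Of the 19 nuclear genes, 9 belong to complex I, 3 to complex II, 2 to complex III, 1 to complex IV and 4 to complex V. This count depends on scaling: with total counts, which shift the median of all genes by -0.11 in this contrast, 7 members passed. It was 10 to 13 without any 1 of WT replicates 1 to 3, Cbl-/- replicates 1 to 3 and Cbl-b-/- replicates 1 and 3, and 35 without DKO replicate 3. Over all genes tested the contrast called 1985, with 1815 to 2430 under alternatives that kept all libraries and 1448 to 2780 without 1 library. The call of mt-Nd4l (edgeR adjusted p = 0.0289) was lost without WT replicate 2 or 3, Cbl-/- replicate 2, Cbl-b-/- replicate 1 or 3, or DKO replicate 2.

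Genes outside the symbol rule that serve the chain were read from 6 lists. The list of assembly factors and electron carriers holds Cyc1, a subunit of complex III that the rule leaves out. The mitochondrial ribosome, which translates the mt- mRNAs, had 39 of 78 genes higher under the DKO label and none lower (median log2 difference 0.21), where 19.1% of all genes tested were called higher and 16.3% lower; Mrpl30 rose by 0.45, Mrpl17 by 0.39, Mrpl39 by 0.38 and Mrpl12 by 0.37. Of 17 genes of uncoupling, import, carriers, chaperones and other roles, many of them often taken as measures of mitochondrial mass, 14 rose and none fell (median 0.31). Among them Hspe1, a chaperonin, rose by 0.56, Timm23, a channel of the inner membrane, by 0.51, Hspd1 by 0.45 and Slc25a5, an ADP/ATP carrier, by 0.38. Assembly factors and electron carriers outside the symbol rule had 17 of 51 higher and 1 lower (median 0.17), led by Coq7 of ubiquinone synthesis (0.55) and the copper chaperone Cox17 (0.53). With total counts these numbers were 21 for the ribosome, 11 for the mass list and 11 for the assembly factors.

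Of 21 genes that copy, maintain and transcribe mitochondrial DNA, 3 fell and 1 rose under the DKO label (median -0.04), beside 16.3% of all genes tested as lower and 19.1% as higher. With total counts 4 fell and 0 rose. Polg, the catalytic subunit of the mitochondrial DNA polymerase, was at 76.9, 78.1 and 75.9 CPM in WT and at 62.6, 60.1 and 47.2 CPM under the DKO label, without overlap (log2 difference -0.45, SE 0.08, edgeR adjusted p = 0.000506). Polg2, its accessory subunit, fell by 0.55 and Tk2, a thymidine kinase of the organelle, by 0.46. Tfam, which packages mitochondrial DNA and serves its transcription, did not pass (-0.06, edgeR adjusted p = 0.602). Tefm, the elongation factor of mitochondrial transcription, rose by 0.50 (edgeR adjusted p = 0.0312), a call lost with total counts (0.0523) and without WT replicate 1, 2 or 3 or DKO replicate 2 or 3 (0.0562 to 0.0981).

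Of 20 genes that process or stabilise mitochondrial RNA, 9 rose and none fell (median 0.21), beside 19.1% of all genes tested as higher and 16.3% as lower. Pnpt1, an exoribonuclease of mitochondria, was at 41.9, 41.1 and 42.1 CPM in WT and at 58.4, 53.4 and 74.8 CPM under the DKO label, highest in replicate 3 (log2 difference 0.58, SE 0.09, edgeR adjusted p = 0.000107). Slirp, which binds and stabilises mt- mRNAs, was at 36.3, 35.4 and 37.1 CPM in WT and at 44.3, 50.1 and 62.3 CPM under the DKO label, again highest in replicate 3 (log2 difference 0.53, SE 0.10, edgeR adjusted p = 0.000416). Both genes were highest in the library whose mt- profile was uneven, and a link between these values was not tested.

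Of 13 nuclear regulators of respiratory genes, 5 rose and 1 fell (median 0.05), beside 19.1% of all genes tested as higher and 16.3% as lower. With total counts 3 rose and 2 fell (median -0.02). Pparg rose by 0.86, Ppargc1b, a coactivator, by 0.78 and Hif1a, a factor of the hypoxia response, by 0.62. Nrf1 (0.03, edgeR adjusted p = 0.746) and Gabpa (0.04, edgeR adjusted p = 0.709), whose motifs were searched above, did not pass. In Cbl-/- libraries, Hif1a (0.29) and Myc (0.27) were higher than in WT. There the assembly factors Cox18 (-0.76), Timmdc1 (-0.62), Pet100 (-0.35) and Coq9 (-0.29) were lower, 4 of 51 in that list (median -0.03). In that comparison 4.19% of all genes tested were called lower. Cox18, an insertase that serves mt-Co2, was at 15.4, 16.6 and 16.8 CPM in WT, at 9.50, 8.80 and 10.3 CPM in Cbl-/- and at 21.5, 23.4 and 19.9 CPM under the DKO label, so that it was below WT in the former (edgeR adjusted p = 2.29e-05) and above it in the latter (log2 difference 0.41, edgeR adjusted p = 0.00142).

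Markers of other cell types moved with the DKO label as well, where 19.1% of all genes tested were called higher than in WT and 16.3% lower. Summed monocyte markers were at 59.7 to 66.3 CPM in WT and at 167.5 to 219.3 CPM under the DKO label, where 7 of 8 rose. Summed granulocyte markers were at 12.4 to 14.9 CPM in WT and at 75.3 to 94.9 CPM, where 5 of 6 rose, while Ly6g, Mpo, Elane, Camp and Retnlg were not in the table. Summed stromal or endothelial markers were at 3.39 to 5.61 CPM in WT and at 12.3 to 15.8 CPM under the DKO label, where 3 of 4 rose. Kit, a marker of mast cells and progenitors, was at 0.31 to 0.50 CPM in WT and at 1.46 to 1.90 CPM under the DKO label, and rose by 2.08 on the log2 scale. Of 12 macrophage markers 7 fell and 2 rose, and their sum was 20870 to 23110 CPM in WT and 17540 to 20730 CPM under the DKO label. Their part in the differences of the respiratory chain genes was not tested.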

How the data were processed

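Messenger RNA was measured in 12 libraries prepared with a stranded poly(A) kit, per the labels' protocols. The authors deposited 1 table of whole-number read counts per gene, not normalised. The submitters' processing notes name the build GRCm38.p5, whereas no source used here names an aligner, a counting tool or a strand setting. Every gene in the table has at least 1 count in WT replicate 1, so genes unread there are missing. Names, positions and exon lengths came from GENCODE M21 (GRCm38), promoters from RefSeq (GRCm38.p6).

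Counts were fitted with edgeR 4.0.16 in R 4.3.3 (filterByExpr, TMM scaling, robust quasi-likelihood F test, 1 mean per genotype over all 12 libraries). After 2884 genes were removed, p-values were adjusted by the Benjamini-Hochberg method over 12671 genes, with a threshold of 0.05. CPM use library sizes summed over the genes tested and scaled by the TMM factors. Total counts over the whole table times these factors ran from 21772158 to 42036859. SE is the log2 difference divided by the root of F. The procedure was tested on simulated data. Sums, shares and ratios over members carry no test. Replicates of 1 genotype differed by more than sampling noise (chi-square per degree of freedom 3.93 or more), so none was merged. DKO replicate 3 gave 44.7 and 55.3 against DKO replicates 1 and 2, and every other pair of a genotype gave 3.93 to 12.3. Same-numbered libraries of different genotypes did not deviate together.

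The members and lists were chosen with earlier results of these data known. The text names all mt- genes, Sdha to Sdhd, the 8 largest increases and decreases among nuclear members called in each comparison with WT, the highest member per complex, the genes of isoform families and up to 4 genes per list, and others where it says so or where they complete a group. Alternatives were other scalings (DESeq2 1.42.0 size factors, total counts, nuclear genes alone), no filter, at least 5 CPM in 3 libraries, the DESeq2 test, limma 3.58.1 voom, a replicate block, only the genotypes compared, and leaving out each library in turn.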

Additional observations from a re-analysis of the deposited data

Results flagged for a closer look

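Results are listed here because a test of the difference between genotype effects passed: the sum of the single-knockout differences did not give the difference under the DKO label. This held for 20 of the 101 respiratory chain genes tested (19.8%), beside 15.7% of all genes tested. By direction it was 21.6% of nuclear members above 0, beside 8.39% of all genes. Below 0 it was 7.69% of mt- genes, beside 7.28% of all genes. The count of members fell to 7 with total counts and ran from 10 to 35 without 1 library. Among the named genes the excess on the log2 scale was 0.57 for Ndufs6 (SE 0.14, edgeR adjusted p = 0.0104), 0.53 for Sdhc (SE 0.08, edgeR adjusted p = 0.00025), 0.32 for Atp5b (edgeR adjusted p = 0.003), 0.32 for Uqcrc2 (0.0188), 0.38 for Cox6a1 (0.0242), 0.38 for Ndufb6 (0.0272), 0.25 for Sdha (0.0306), 0.24 for Sdhb (0.0363), 0.23 for Uqcrc1 (0.0427) and 0.21 for Atp5a1 (0.0456). For mt-Nd4l it was -0.39 (edgeR adjusted p = 0.0289). Ndufs6 itself did not pass against WT under the DKO label, and its excess also takes in the differences of the single knockouts. The difference between nuclear and mt- genes was not itself tested.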

How the results depend on the processing

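Of 26 named members called under the DKO label, 16 kept their call under all 21 alternatives. The replicate block left 52 members called there (nuclear 46, mt- 6), and 1, 0, 62 and 16 in Cbl-/-, under the Cbl-b-/- label, in DKO against Cbl-/- and in the non-additive contrast; same-numbered libraries shared no deviation (18 pairs, r from -0.054 to 0.0519), and 4 of 12 correlated best with their own number. With only the genotypes compared in the fit, Cbl-/- against WT called 7 members (2 mt-, 5 nuclear) and 2753 genes in all, and DKO against Cbl-/- called 3 mt- genes. With total counts the non-additive contrast called 7 members (2 mt-, 5 nuclear); the DESeq2 test called 2 mt- genes there and 146 genes in all under the Cbl-b-/- label. The log2 mt- to nuclear ratio of Cbl-/- against WT, -0.10, was 0.0698 with the median of per-gene values; the cause was not tested.

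Leaving out 1 library gave these ranges. Cbl-/- against WT called 0 to 5 members (mt- 0 to 2, nuclear 0 to 3) and 733 to 2206 genes in all. The Cbl-b-/- label against WT called 35 to 144 genes in all and 0 members. DKO against WT called 34 to 60 members (mt- 4 to 12, nuclear 30 to 49), with 34 without WT replicate 1 and 60 without DKO replicate 3. DKO against Cbl-/- called 2 to 11 mt- genes. The non-additive contrast called 10 to 35 members (mt- 0 to 6, nuclear 10 to 29) and 1448 to 2780 genes in all. The log2 difference of mt-Atp8 between DKO and WT ran from -0.7446 without DKO replicate 3, where it reversed, to 1.0216 without DKO replicate 2. Depth limited Cox4i2, Cox6a2 and Cox6b2, which were under 1 CPM in each library. With 3 libraries a genotype and 1 DKO library apart, small differences may be missed.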
